A study of Saccharomyces cerevisiae with 12 samples.

Results

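A set of 5 genes of guanine nucleotide synthesis was followed across 6 strains of budding yeast, Saccharomyces cerevisiae. They are IMD2 (YHR216W), IMD3 (YLR432W), IMD4 (YML056C), GUA1 (YMR217W) and GUK1 (YDR454C). These 5 identifiers were taken by name from the 7126 in the deposited table, and all 5 passed the filter on low counts. They were selected on their measured levels in all 6 strains, so their values are given below as a description, without tests.

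Guanine nucleotides are made from inosine monophosphate (IMP), the branch point of purine synthesis. IMP dehydrogenase, encoded in yeast by the IMD genes, oxidises IMP to xanthosine monophosphate and is the rate-limiting enzyme of the branch. GMP synthetase (Gua1) turns that product into GMP, and guanylate kinase (Guk1) phosphorylates GMP to GDP. IMD2 is known as the inducible IMP dehydrogenase gene, which yeast needs to grow in the presence of mycophenolic acid, an inhibitor of the enzyme. When guanine nucleotides are plentiful, transcription of IMD2 is known to start upstream of the usual site and to end early, through the Nrd1 termination complex, as a short unstable RNA.

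RNA was sequenced from 12 libraries of strain MGD353-13D in rich medium at mid log phase, 2 libraries in each of 6 groups. Every group has the same parent strain and medium, and the groups differ in SDC1 and JHD2. Sdc1_KO lacks SDC1, the gene of a Set1 complex subunit. The Set1 complex methylates histone H3 at lysine K4, and the subunit carries a DPY30 motif. Dpy30_KO lacks only that motif, and Sdc1_mut carries a point mutation in SDC1. Sdc1_mut_Jhd2_KO joins the point mutation with a deletion of JHD2, which encodes the demethylase of the same mark. Jhd2_KO lacks JHD2 alone, and WT carries neither change. The labels name neither the residue changed nor the number of clones, and do not state if both libraries of a strain stem from 1 culture. The p-values below therefore measure only the spread between libraries, which may be technical.

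Library depth ran from 8652878 to 26041718 fragments. SDC1 had 0 fragments in both Sdc1_KO libraries and 162 to 648 in the other 10, and JHD2 had 0 in all 4 libraries that carry its deletion and 104 to 261 in the other 8. Replicates were least alike in Sdc1_KO, where the log2 difference between them had an SD of 0.429 over all features, against 0.247 to 0.296 in the other 5 groups. Mitochondrially encoded RNA was nearly absent from 3 groups. Its fragments numbered 53234 and 48224 in Sdc1_KO, 17 and 8 in Dpy30_KO, and 9 and 2 in Sdc1_mut. They numbered 9 and 16 in Sdc1_mut_Jhd2_KO, 29213 and 37870 in Jhd2_KO, and 35130 and 62790 in WT. No spike-in is named in the labels, so a level is always a share of its library, and fewer cells of a kind and less RNA per cell cannot be told apart.

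On the sacCer3 assembly, IMD2 lies at chrVIII:554396-555967 on the plus strand, 137 bases from the annotated telomeric region of the right arm and 6676 bases from the end of the chromosome. IMD3 lies at chrXII:1002557-1004128 (plus strand) and GUA1 at chrXIII:701790-703367 (plus strand). IMD4 lies at chrXIII:162194-164176 (minus strand) and is the single member of the 5 with an intron, between its 2 coding exons. GUK1 lies at chrIV:1366264-1366827 (minus strand). The coding sequence of IMD2 was 88.9% identical to that of IMD3 and 79.2% identical to that of IMD4, and IMD3 and IMD4 were 82.1% identical.

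IMD2 and IMD3 parted in the SDC1 mutants, as described below, and the DNA before their start codons is shown because it is less alike than their coding sequence. Each window begins 300 bases before the start codon and is 180 bases long in the direction of the gene, from the RefSeq R64 assembly, which is the sacCer3 sequence. The IMD2 window is chrVIII:554096-554275 and the IMD3 window is chrXII:1002257-1002436, both on the plus strand. Capitals mark the block that a local alignment found in both windows.
IMD2: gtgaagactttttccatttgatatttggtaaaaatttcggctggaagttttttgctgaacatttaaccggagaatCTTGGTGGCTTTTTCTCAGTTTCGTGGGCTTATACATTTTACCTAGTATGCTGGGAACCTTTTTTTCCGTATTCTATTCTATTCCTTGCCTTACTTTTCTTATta
IMD3: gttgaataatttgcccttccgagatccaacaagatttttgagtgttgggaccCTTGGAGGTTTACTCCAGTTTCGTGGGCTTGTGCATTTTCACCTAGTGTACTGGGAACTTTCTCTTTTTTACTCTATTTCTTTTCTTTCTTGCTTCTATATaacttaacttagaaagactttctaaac
In the block, 82 of 108 alignment columns were identical (75.9%). It lies 225 to 123 bases before the start codon in IMD2 and 248 to 148 bases before it in IMD3. Over the whole windows the identity was 55.1%.

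The windows of IMD4 (chrXIII:164297-164476, minus strand) and GUA1 (chrXIII:701490-701669, plus strand) are shown for contrast, because they held motifs that the IMD2 and IMD3 windows did not. Capitals mark TATAAA, the core of a TATA box, and TGACTC, the core of the site of the amino acid starvation factor Gcn4. Both were searched on both strands and do not overlap each other.
IMD4: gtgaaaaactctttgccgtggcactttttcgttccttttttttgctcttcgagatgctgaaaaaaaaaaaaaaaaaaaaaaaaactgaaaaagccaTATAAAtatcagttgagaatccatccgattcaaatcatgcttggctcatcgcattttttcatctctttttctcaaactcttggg
GUA1: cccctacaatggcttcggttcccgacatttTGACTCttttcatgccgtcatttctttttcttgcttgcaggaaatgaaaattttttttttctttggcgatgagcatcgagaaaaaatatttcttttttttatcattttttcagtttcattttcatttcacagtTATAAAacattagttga
TATAAA occurred in the windows of IMD4, GUA1 and GUK1, and in 29.5% of the same windows of 6001 protein-coding genes. TGACTC occurred in the GUA1 window, and in 5.43% of the 6001. These are matches of letters in a fixed window, and nothing about a factor follows from them.

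In WT, IMD2 was the most abundant member in the authors' FPKM (fragment counts divided by transcript length and library size), the scale that allows levels of different genes to be compared. It averaged 463 ± 7.36 FPKM in WT (SD, n = 2, as for every level below). GUK1 followed with 267 ± 39.5 FPKM, IMD3 with 181 ± 13.8, GUA1 with 179 ± 15.5 and IMD4 with 147 ± 1.94. In Sdc1_mut_Jhd2_KO, the double mutant, the order differed. There IMD2 was the lowest member at 39.0 ± 0.68 FPKM, and GUK1 was the highest at 293 ± 6.20 FPKM.

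IMD2 was the gene with the widest range. Its level, in CPM (counts scaled to a common library size), was 512 and 699 in the Sdc1_KO libraries. It was 160.5 and 214 CPM in Dpy30_KO and 97.7 and 168 CPM in Sdc1_mut. The double mutant held 60.8 and 59.5 CPM, Jhd2_KO 683 and 786 CPM, and WT 677 and 711 CPM. The strains fell into 3 tiers that stood apart, with Jhd2_KO, WT and Sdc1_KO in the upper one, Dpy30_KO and Sdc1_mut in the middle one and the double mutant alone below. Within the upper tier and within the middle tier, neighbouring strains overlapped.

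**Figure D1:**
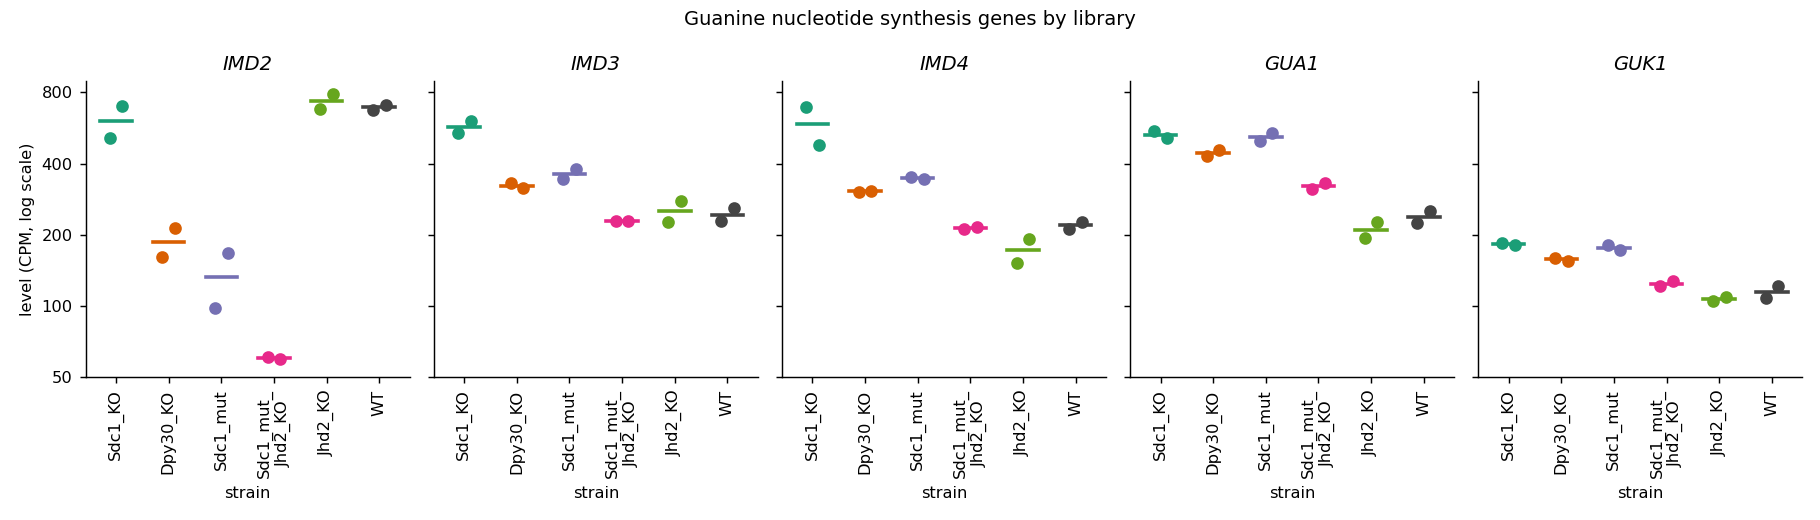
Level of the 5 genes in each library, in CPM on a log axis, by strain. Points are libraries (2 in each strain) and lines are group means. IMD2 falls into 3 tiers, with the double mutant at 60.8 and 59.5 CPM and WT at 677 and 711 CPM, while the other 4 genes have their highest mean in Sdc1_KO.

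In fold terms IMD2 was 3.71-fold lower in Dpy30_KO than in WT (log2 fold change -1.89 ± 0.23, standard error) and 5.22-fold lower in Sdc1_mut (-2.38 ± 0.23). The log2 fold change for Sdc1_mut was -2.83 or -2.05 when 1 of its 2 libraries was left out. The double mutant had 11.5-fold less IMD2 RNA than WT (-3.53 ± 0.24) and 12.2-fold less than Jhd2_KO (-3.61 ± 0.24). By contrast, the log2 fold change of IMD2 against WT was -0.20 ± 0.22 in Sdc1_KO and 0.08 ± 0.22 in Jhd2_KO, with overlapping libraries in both. The 3 strains with low IMD2 are also the 3 with 2 to 17 mitochondrially encoded fragments per library. The loss of that RNA and the change in SDC1 cannot be told apart for those strains against WT. Both the double mutant and Sdc1_mut nearly lacked that RNA, and IMD2 was still 2.21-fold lower in the double mutant (-1.14 ± 0.23, or -1.48 without Sdc1_mut replicate 1 and -0.70 without Sdc1_mut replicate 2).

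IMD3, a constitutive IMP dehydrogenase gene, was higher than in WT in Sdc1_KO, Dpy30_KO and Sdc1_mut, and overlapped WT in the double mutant. It stood at 541 and 605 CPM in Sdc1_KO, 330.0 and 315 CPM in Dpy30_KO, and 343 and 380.2 CPM in Sdc1_mut. The double mutant held 228 CPM in both libraries, Jhd2_KO 227 and 278 CPM, and WT 227 and 258 CPM. Sdc1_KO was above Sdc1_mut and Sdc1_mut above Dpy30_KO with no overlap between neighbours, whereas Jhd2_KO, WT and the double mutant overlapped. Against WT the log2 fold changes of IMD3 were 1.24 ± 0.12 in Sdc1_KO, 0.41 ± 0.12 in Dpy30_KO and 0.58 ± 0.12 in Sdc1_mut. For the double mutant the value was -0.09 ± 0.12, and in Jhd2_KO it was 0.06 ± 0.12.

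IMD4, the third IMP dehydrogenase gene, followed IMD3. It stood at 697 and 481 CPM in Sdc1_KO, 304 and 306 CPM in Dpy30_KO, and 352 and 344 CPM in Sdc1_mut. The double mutant held 212 and 215 CPM, Jhd2_KO 151 and 192 CPM, and WT 212 and 226 CPM. Jhd2_KO was the lowest strain and lay apart from the others, and the double mutant overlapped WT. Against WT the log2 fold changes of IMD4 were 1.43 ± 0.16 in Sdc1_KO, 0.48 ± 0.15 in Dpy30_KO, 0.67 ± 0.16 in Sdc1_mut, -0.04 ± 0.15 in the double mutant and -0.35 ± 0.16 in Jhd2_KO. The Sdc1_KO value was 1.11 without its replicate 1 and 1.67 without its replicate 2. The intron of IMD4 (chrXIII:163309-163716, 408 bases) holds the small nucleolar RNA gene SNR54, which had 0 to 2 fragments in every library.

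GUA1, whose enzyme makes GMP, was about as high in Sdc1_mut as in Sdc1_KO. Its levels were 547 and 512 CPM in Sdc1_KO, 431 and 455 CPM in Dpy30_KO, and 499.8 and 541 CPM in Sdc1_mut. The double mutant held 312 and 332 CPM, Jhd2_KO 194 and 226 CPM, and WT 223 and 251 CPM. Sdc1_KO and Sdc1_mut overlapped at the top, Dpy30_KO and the double mutant each stood apart below them, and WT overlapped Jhd2_KO. Against WT the log2 fold changes of GUA1 were 1.16 ± 0.11 in Sdc1_KO, 0.90 ± 0.11 in Dpy30_KO, 1.13 ± 0.11 in Sdc1_mut, 0.44 ± 0.11 in the double mutant and -0.18 ± 0.11 in Jhd2_KO.

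GUK1, whose enzyme makes GDP, had the narrowest range of the 5. It stood at 184 and 179.9 CPM in Sdc1_KO, 159 and 155 CPM in Dpy30_KO, and 181 and 172 CPM in Sdc1_mut. The double mutant held 121 and 127 CPM, Jhd2_KO 105 and 109 CPM, and WT 108 and 122 CPM. The order of the strains was that of GUA1, except that the double mutant overlapped WT. Against WT the log2 fold changes of GUK1 were 0.66 ± 0.09 in Sdc1_KO, 0.45 ± 0.09 in Dpy30_KO, 0.62 ± 0.09 in Sdc1_mut, 0.11 ± 0.09 in the double mutant and -0.10 ± 0.09 in Jhd2_KO.

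**Figure D2:**
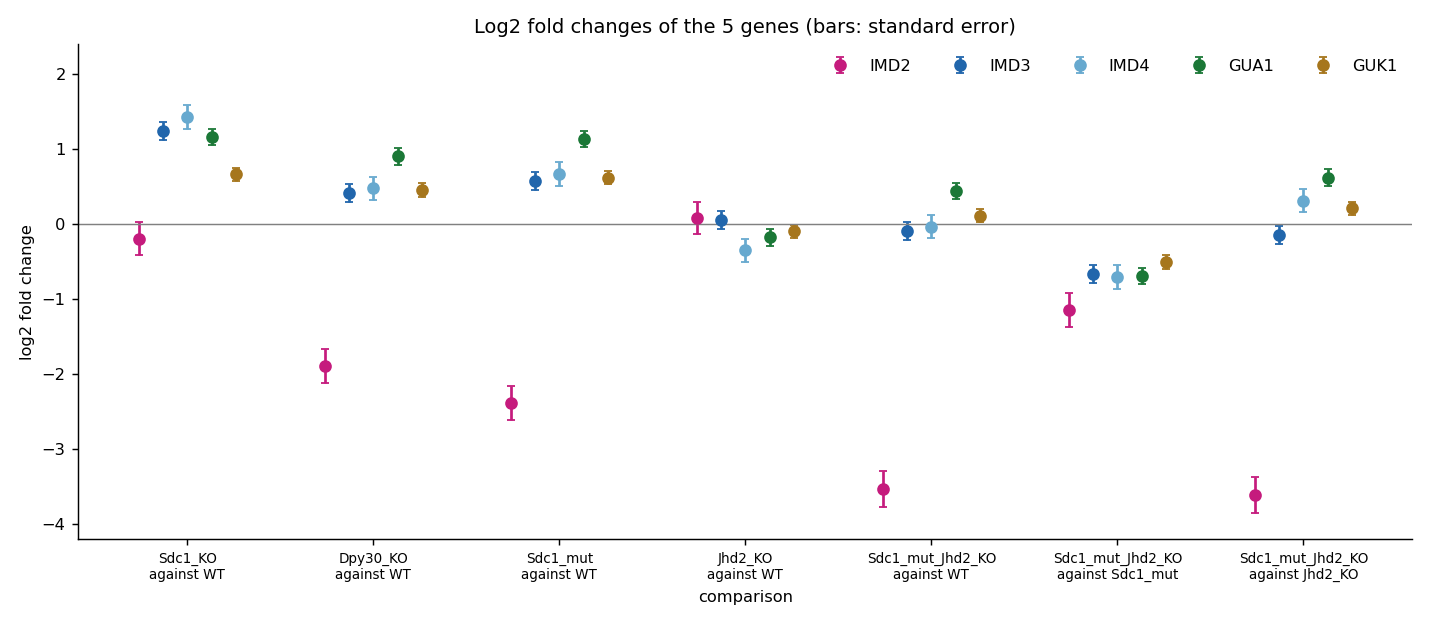
Log2 fold change of each gene in 7 comparisons, with bars for the standard error from the fit of all 12 libraries. IMD2 lies at -1.89, -2.38 and -3.53 in Dpy30_KO, Sdc1_mut and the double mutant against WT, on the other side of zero from GUA1, and all 5 genes lie below zero in the double mutant against Sdc1_mut.

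With 2 libraries a group, separated libraries are common, so the counts of separated members need their background. In Sdc1_KO against WT, 4 of the 5 genes had separated libraries, all higher, against 72.0% of the 6361 features tested that were separated in either direction. Their median log2 fold change was 1.16, beside 0.04 over all features. In Dpy30_KO all 5 were separated, 4 higher and IMD2 lower (background 79.8%, median 0.45 beside 0.02 over all features). In Sdc1_mut the counts were the same (background 80.5%, median 0.62 beside 0.02). In Jhd2_KO 1 of 5 was separated, IMD4 on the lower side (background 55.0%, median -0.10 beside -0.002 over all features). For the double mutant against WT, GUA1 was higher and IMD2 lower, and the other 3 overlapped (background 81.5%). These shares were used in the choice of the genes, and nothing is read from them.

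Deletion of JHD2 went with lower levels of every member when it was made in the point mutant. In the double mutant against Sdc1_mut all 5 genes were separated and lower (background 72.0%), with log2 fold changes of -0.67 ± 0.12 for IMD3, -0.71 ± 0.16 for IMD4, -0.69 ± 0.11 for GUA1 and -0.51 ± 0.09 for GUK1 beside that of IMD2 above. Their median was -0.69, beside -0.04 over all features. In Jhd2_KO against WT the same 5 genes ran from -0.35 to 0.08. The difference between the effects of the JHD2 deletion in the point mutant and in WT was -1.23 ± 0.31 for IMD2 and -0.72 ± 0.17 for IMD3. It was -0.36 ± 0.22 for IMD4, -0.52 ± 0.16 for GUA1 and -0.41 ± 0.13 for GUK1. The 2 comparisons share no library. JHD2 itself stood at 13.0 and 14.2 CPM in Sdc1_mut and at 6.27 and 4.36 CPM in WT, so its deletion removed unequal levels. The part of that inequality in the values was not tested.

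Seen from the other side, the point mutation on the JHD2 deletion left 3 genes separated and higher and IMD2 separated and lower in the double mutant against Jhd2_KO (background 82.1%). The log2 fold changes were 0.31 ± 0.16 for IMD4, 0.62 ± 0.11 for GUA1 and 0.21 ± 0.09 for GUK1. IMD3, with overlapping libraries, stood at -0.15 ± 0.12.

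The 3 IMD genes encode the same enzyme, so their summed RNA per kilobase of coding length was compared. The sum was 1113 and 1135 CPM per kb in Sdc1_KO, 505 and 530.3 in Dpy30_KO, and 504 and 567 in Sdc1_mut. It was 318 and 319.5 CPM per kb in the double mutant, 675 and 799 in Jhd2_KO, and 709.8 and 760.0 in WT. Sdc1_KO lay above every other strain, Jhd2_KO and WT overlapped, Dpy30_KO and Sdc1_mut lay below WT, and the double mutant was lowest.

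The make-up of the sum differed between the strains too. IMD2 gave 29.3% and 39.2% of it in Sdc1_KO, 20.2% and 25.6% in Dpy30_KO, and 12.3% and 18.8% in Sdc1_mut. The share was 12.2% and 11.9% in the double mutant, 64.4% and 62.6% in Jhd2_KO, and 60.7% and 59.5% in WT. In Sdc1_KO, where the IMD2 level overlapped that of WT, its share lay below that of both WT libraries, and IMD3 and IMD4 lay above their WT levels. The IMD3 share was 30.9% and 33.9% in Sdc1_KO, 45.6% and 45.3% in the double mutant, and 20.4% and 21.6% in WT. The ratio of GUA1 to the IMD sum, per kilobase of coding length, was 0.299 ± 0.018 in Sdc1_KO, 0.542 ± 0.002 in Dpy30_KO and 0.617 ± 0.017 in Sdc1_mut. It was 0.640 ± 0.025 in the double mutant, 0.181 ± 0.003 in Jhd2_KO and 0.204 ± 0.007 in WT.

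**Figure D3:**
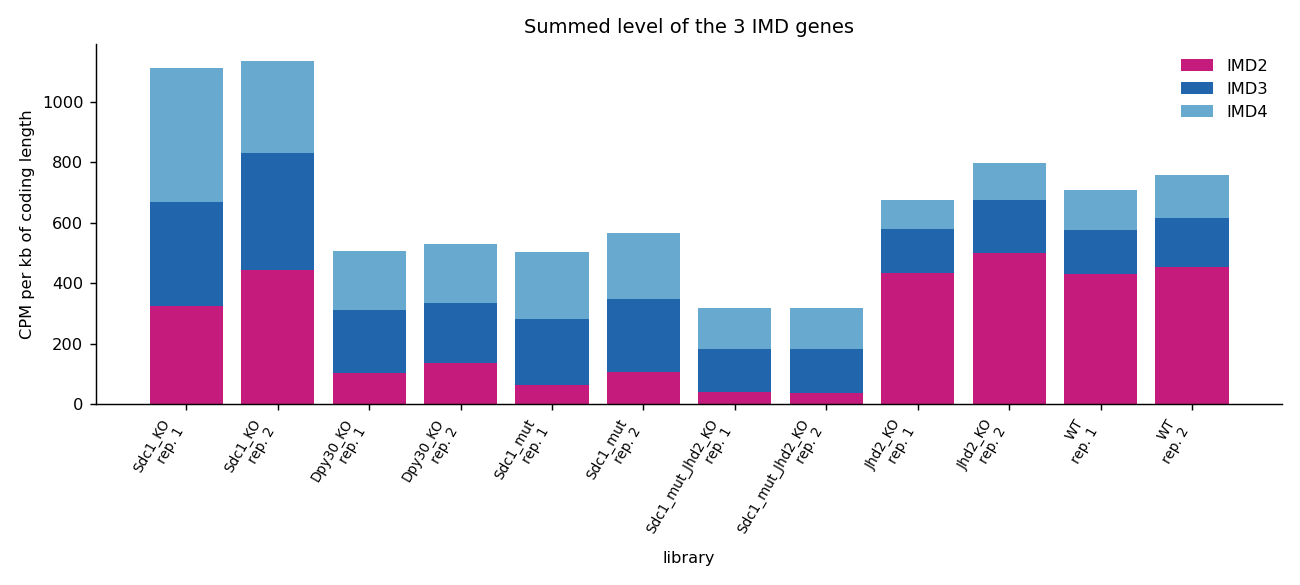
Summed level of IMD2, IMD3 and IMD4 in each library, in CPM per kb of coding length, with a bar for each of the 12 libraries split by gene. The bars reach 1113 and 1135 in Sdc1_KO and 318 and 319.5 in the double mutant, and IMD2 fills about 60% of each WT bar and about 12% of each double mutant bar.

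Part of the IMD2 count could have come from a near-identical copy. The IMD2 coding sequence had a match of 96.3% identity over 1576 bases at chrI:227742-229317, where the RefSeq annotation used here holds no gene. The deposited table lists YAR073W and YAR075W, identifiers that this annotation does not hold. Together they had between 0.0527% of the IMD2 fragments in a Jhd2_KO library and 5.51% in a library of the double mutant. Added to IMD2, they gave log2 fold changes of -1.88 in Dpy30_KO, -2.38 in Sdc1_mut and -3.46 in the double mutant against WT. How reads that match several places were assigned is not given in the sources used here.

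Across the 12 libraries, IMD2 did not move with the other members, whereas those moved together. The Pearson correlation of log2 CPM was 0.22 between IMD2 and IMD3, 0.02 with IMD4, -0.37 with GUA1 and -0.24 with GUK1. It was 0.93 between IMD3 and IMD4 and 0.98 between GUA1 and GUK1. The points are 6 strains with 2 libraries each and share the scaling, so these values describe the strains.

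Among 5747 features with a mean of at least 5 CPM, the patterns most like that of IMD2 were those of YVC1, a vacuolar cation channel gene (r = 0.99), and ATP5, a subunit gene of the mitochondrial ATP synthase (0.98). SCM4, SRL1 and NCA2 followed (0.98, 0.97 and 0.97). For IMD3 they were ELO2, a fatty acid elongase gene (0.99), PRO1 of proline synthesis (0.97), SFA1, GCD7 and RNA1. For IMD4 they were ATM1, a mitochondrial ABC transporter gene (0.97), YCR043C, ZRT3, SNL1 and RHO4. For GUA1 they were RPC40, a subunit shared by RNA polymerases I and III (0.99), and EMG1, NOP1 and TRM9, which act on ribosomal or transfer RNA, with YLR363W-A. For GUK1 they were YDL050C, LHP1, TPA1, NIP7 and RPC40, each at 0.98 or 0.99. YDL050C had no match in the annotation used here, and LHP1 carries the adjoining systematic number, YDL051W.

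The 45 other genes of purine and guanine nucleotide metabolism and of early termination were tested. A gene is called below at an adjusted p under 0.05 (edgeR quasi-likelihood test, Benjamini-Hochberg over all 6361 features). The lists were chosen with earlier results of these data known, so a share above that of all features is a description and no independent support. In Sdc1_KO against WT, 21 rose and 5 fell, beside 28.0% of all features called higher and 22.4% called lower, and a fit of these 2 groups alone called 17 in place of 26. In Dpy30_KO 21 rose and 8 fell (27.2% and 25.1% of all features), and in Sdc1_mut 21 rose and 7 fell (27.9% and 24.7%). The double mutant had 16 that rose and 13 that fell against WT (29.1% and 30.1%), 3 and 18 against Sdc1_mut (13.2% and 19.4%), and 14 and 15 against Jhd2_KO (28.6% and 29.8%). The count against Sdc1_mut, 21 with all libraries, was 13 without Sdc1_mut replicate 1 and 11 without Sdc1_mut replicate 2. In Jhd2_KO against WT none was called by edgeR, beside 0.755% of all features called higher and 0.88% called lower. There 11 genes had an unadjusted p under 0.05, and DESeq2 called 2. Without Sdc1_KO replicate 1, or without replicate 2, edgeR called 5.

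The pathway that makes IMP, upstream of the guanine branch, rose in part in every SDC1 mutant. Of the 8 genes listed for it 7 rose in Sdc1_KO and 5 in each of Dpy30_KO, Sdc1_mut and the double mutant, and none fell against WT. Over all features 27.2% to 29.1% were called higher and 22.4% to 30.1% lower in these 4 comparisons. The median log2 fold changes of the 8 were 1.45 in Sdc1_KO, 0.83 in Dpy30_KO, 1.04 in Sdc1_mut and 0.89 in the double mutant, against 0.04, 0.02, 0.02 and 0.002 over all features. The Sdc1_KO libraries differed for some of these genes, with replicate 1 the higher. ADE2 had 204 and 87.4 CPM there and ADE17 425 and 224 CPM, whereas ADE16 had 361 and 355 CPM. With 1 library left out, the Sdc1_KO value ran from 3.26 to 4.21 for ADE17 and from 1.58 to 2.25 for ADE1. ADE13, whose enzyme also acts in this pathway, was counted with the AMP branch instead. It rose by 1.47 in Sdc1_KO, 0.73 in Dpy30_KO and 0.96 in Sdc1_mut. ADE17, one of 2 genes for the last enzyme of IMP synthesis, rose by 3.82 ± 0.29 on the log2 scale in Sdc1_KO (adjusted p = 2e-06), 2.08 ± 0.28 in Dpy30_KO, 2.61 ± 0.28 in Sdc1_mut and 1.86 ± 0.27 in the double mutant (adjusted p = 9.3e-05). Its paralog ADE16 was not called, with values between -0.04 and 0.20 in these strains. ADE1, whose enzyme acts earlier in the pathway, rose by 1.97 ± 0.18 in Sdc1_KO, 1.09 ± 0.17 in Dpy30_KO, 1.46 ± 0.17 in Sdc1_mut and 0.98 ± 0.17 in the double mutant (adjusted p from 5.3e-06 to 0.00036, edgeR).

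PRPP, the sugar phosphate on which purines are built, is made by the PRS enzymes. Of 5 PRS genes 4 rose in Sdc1_KO, 3 rose and 1 fell in Dpy30_KO, 4 rose in Sdc1_mut, and 2 rose and 1 fell in the double mutant. The share that rose was above that of all features (27.2% to 29.1%) in the 3 single mutants and nearer to it in the double mutant. Their median log2 fold changes were 0.54, 0.38, 0.58 and 0.11 in that order, beside 0.04, 0.02, 0.02 and 0.002 over all features. Part of the counts rests on calls that did not hold. The PRS4 and PRS5 calls in Sdc1_KO were lost in a fit of Sdc1_KO and WT alone (adjusted p = 0.058 and 0.068, edgeR). With 1 library left out, PRS4 in Sdc1_mut (0.41 with all) ran from 0.26 to 0.54. PRS2 in Dpy30_KO (-0.33 with all) ran from -0.41 to -0.23. PRS3 rose by 1.03 ± 0.11 in Sdc1_KO, 1.51 ± 0.12 in Dpy30_KO, 1.67 ± 0.12 in Sdc1_mut and 1.36 ± 0.12 in the double mutant (adjusted p from 4.1e-07 to 2.4e-05, edgeR).

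Of the 5 genes listed for the AMP branch, 3 rose in each single SDC1 mutant, and in the double mutant 1 rose and 2 fell. ADE12, whose enzyme takes IMP into the branch, was not among those that rose, and in the double mutant it was among those that fell. Over all features 27.2% to 28.0% were called higher in the single mutants, and in the double mutant, where 29.1% were called higher and 30.1% lower, the counts of this branch are near the background. Its median log2 fold changes were 0.69 in Sdc1_KO, 0.47 in Dpy30_KO, 0.29 in Sdc1_mut and 0.21 in the double mutant. ADO1, the adenosine kinase gene, rose by 1.05 ± 0.11, 1.39 ± 0.11, 1.20 ± 0.11 and 1.04 ± 0.11 in these 4 strains, taken in the same order (adjusted p from 1.7e-06 to 1.9e-05, edgeR). ADK1, the adenylate kinase gene, rose by 0.69 ± 0.11 in Sdc1_KO and fell by 0.48 ± 0.11 in the double mutant (adjusted p = 0.00029 and 0.0024, edgeR). Its rise of 0.29 ± 0.11 in Sdc1_mut (adjusted p = 0.039, edgeR) was lost in 3 of the 4 fits that left out a library, with an adjusted p of 0.33 without WT replicate 1, and with library totals as the scaling (adjusted p = 0.067, edgeR).

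**Figure D4:**
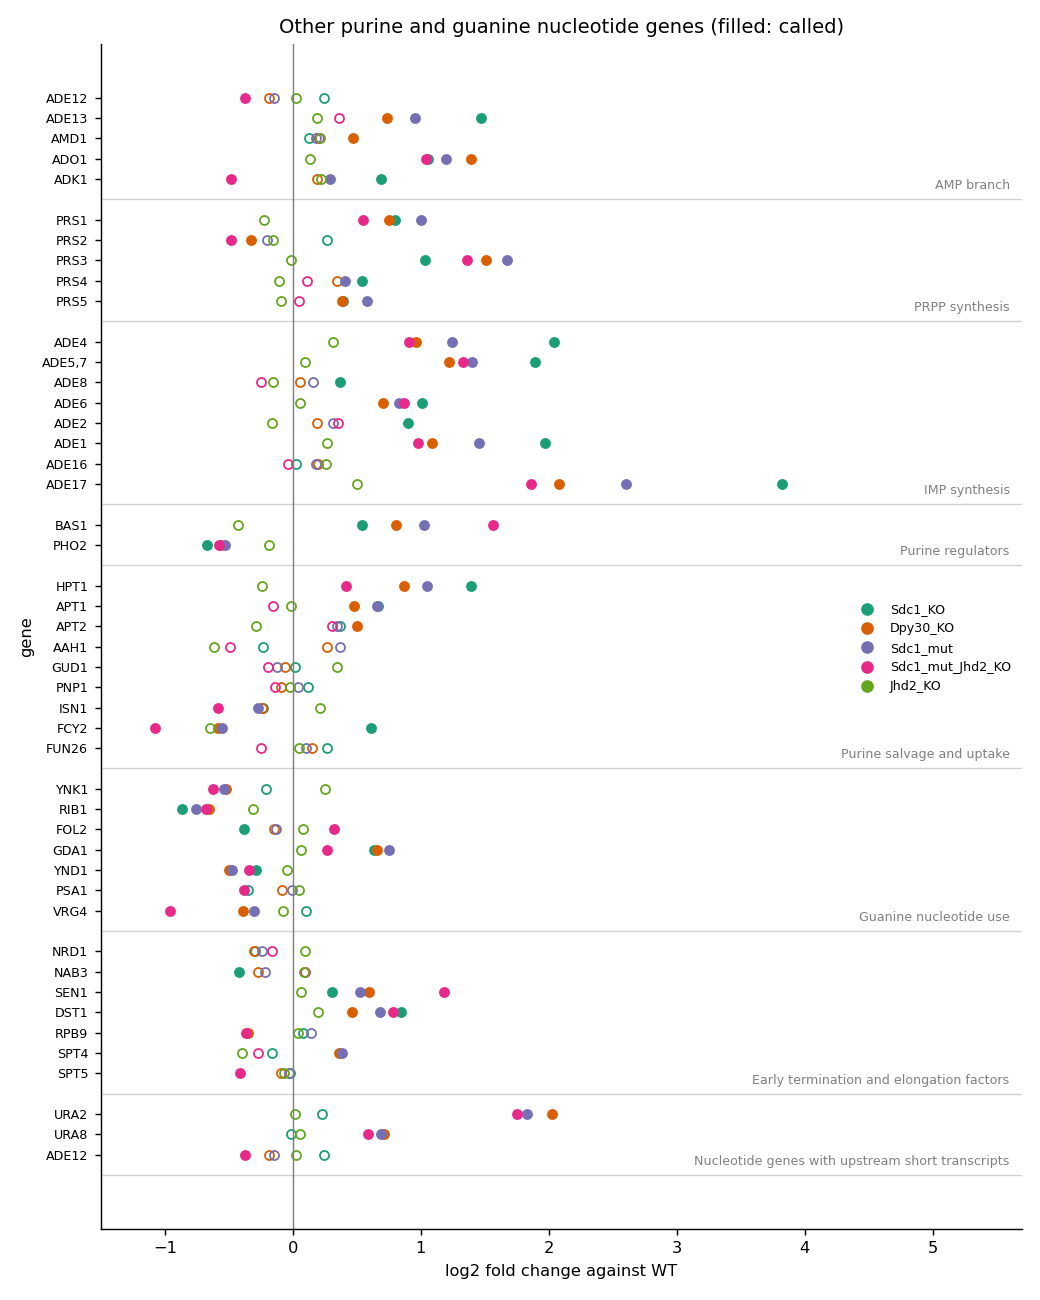
Log2 fold change against WT of the other nucleotide and termination genes, by list (rows, separated by lines) and strain (colours), with filled points for genes called at an adjusted p under 0.05. ADE17 reaches 3.82 in Sdc1_KO, URA2 lies near 2 in Dpy30_KO, Sdc1_mut and the double mutant but at 0.23 in Sdc1_KO, and no gene is filled in Jhd2_KO.

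Genes that use or recover guanine nucleotides were mixed. Of 7 genes of guanine nucleotide use, 1 rose and 3 fell in Sdc1_KO, 1 rose and 4 fell in each of Dpy30_KO and Sdc1_mut, and 2 rose and 5 fell in the double mutant. Over all features 22.4% (Sdc1_KO) to 30.1% (the double mutant) were called lower and 27.2% to 29.1% higher. The medians were -0.28, -0.39, -0.31 and -0.38 in that order, beside 0.002 to 0.04 over all features. The gene that rose in each single SDC1 mutant was GDA1. It rose by 0.63 in Sdc1_KO, 0.65 in Dpy30_KO and 0.75 in Sdc1_mut (adjusted p = 0.00023, 0.00014 and 5.2e-05, edgeR). RIB1, whose enzyme uses GTP to begin riboflavin synthesis, fell by 0.86 ± 0.09 in Sdc1_KO, 0.66 ± 0.09 in Dpy30_KO, 0.76 ± 0.09 in Sdc1_mut and 0.68 ± 0.09 in the double mutant (adjusted p from 1.2e-05 to 5.8e-05, edgeR). VRG4, the Golgi carrier of GDP-mannose, fell by 0.39 ± 0.10 in Dpy30_KO, 0.31 ± 0.10 in Sdc1_mut and 0.96 ± 0.11 in the double mutant (adjusted p = 0.0072, 0.025 and 9e-06, edgeR) and had a log2 fold change of 0.10 ± 0.10 in Sdc1_KO. YNK1, the nucleoside diphosphate kinase that makes GTP from GDP, fell by 0.52 ± 0.11 in Dpy30_KO, 0.54 ± 0.11 in Sdc1_mut and 0.63 ± 0.11 in the double mutant, and stood at -0.21 ± 0.11 in Sdc1_KO, where it was not called.

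Of 9 salvage and uptake genes, 3 rose in Sdc1_KO, 3 rose and 1 fell in Dpy30_KO, 2 rose and 2 fell in Sdc1_mut, and 1 rose and 2 fell in the double mutant. The shares that rose in the single mutants are near those of all features (28.0%, 27.2% and 27.9%) and give no result about these genes. The medians were 0.26, 0.15, 0.11 and -0.20 in that order. HPT1, whose enzyme recovers hypoxanthine and guanine, rose by 1.39 ± 0.14 in Sdc1_KO, 0.87 ± 0.14 in Dpy30_KO and 1.05 ± 0.14 in Sdc1_mut (adjusted p = 1e-05, 0.00024 and 5.9e-05, edgeR). In the double mutant it rose by 0.41 ± 0.14 (adjusted p = 0.022, edgeR), a call lost in 3 of the 4 fits that left out a library (adjusted p = 0.20 without WT replicate 1). Relative to Sdc1_mut, HPT1 fell in the double mutant by 0.64 ± 0.14 (adjusted p = 0.0044, edgeR). FCY2, of the same list, was called lower in Dpy30_KO (-0.58), Sdc1_mut (-0.55) and the double mutant (-1.08, adjusted p = 0.00012, edgeR). With 1 library left out, FCY2 ran from -0.75 to -0.43 in Dpy30_KO and from -0.64 to -0.46 in Sdc1_mut. Its rise of 0.61 in Sdc1_KO (adjusted p = 0.0068, edgeR) was lost in the fit of Sdc1_KO and WT alone (adjusted p = 0.063, edgeR). Of the 2 regulators of purine genes, BAS1 rose in all 4 strains, by 0.54 ± 0.12 in Sdc1_KO, 0.81 ± 0.12 in Dpy30_KO, 1.02 ± 0.12 in Sdc1_mut and 1.57 ± 0.12 in the double mutant (adjusted p from 5.3e-07 to 0.0024, edgeR). PHO2, which encodes its partner, fell in all 4, by 0.53 to 0.67. The PHO2 call in Dpy30_KO ended without Dpy30_KO replicate 2 (adjusted p = 0.061, edgeR). In Sdc1_mut it ended in 2 of the 4 fits that left out a library, with an adjusted p of 0.059 without WT replicate 1 (edgeR).

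Early termination of short upstream transcripts is known at IMD2 and at a few other nucleotide genes, of which URA2, URA8 and ADE12 were tested. None was called in Sdc1_KO, 2 rose in each of Dpy30_KO and Sdc1_mut, and 2 rose and 1 fell in the double mutant. Over all features 27.2% to 29.1% were called higher and 22.4% to 30.1% lower in these comparisons. With so few genes, nothing is read from the counts. URA2, which encodes the first enzyme of pyrimidine synthesis, rose by 2.02 ± 0.11 in Dpy30_KO, 1.83 ± 0.11 in Sdc1_mut and 1.75 ± 0.11 in the double mutant (adjusted p from 8.9e-08 to 1.7e-07, edgeR), and stood at 0.23 ± 0.11 in Sdc1_KO and 0.01 ± 0.11 in Jhd2_KO, uncalled in both. In the double mutant against Sdc1_mut, where IMD2 was lower still, URA2 stood at -0.08 ± 0.11 and was not called. URA8, a CTP synthase gene, rose by 0.71 ± 0.11, 0.69 ± 0.11 and 0.59 ± 0.11 in the same 3 strains (adjusted p from 0.00022 to 0.0006, edgeR) and stood at -0.01 ± 0.11 in Sdc1_KO. ADE12, whose enzyme starts the branch to AMP, fell by 0.37 ± 0.11 in the double mutant (adjusted p = 0.0092, or 0.073 without Sdc1_mut_Jhd2_KO replicate 2, edgeR). It stood at 0.25 ± 0.11 in Sdc1_KO, -0.18 ± 0.11 in Dpy30_KO and -0.14 ± 0.11 in Sdc1_mut, uncalled in all 3. Dpy30_KO, Sdc1_mut and the double mutant are also the 3 strains nearly without mitochondrial RNA, and the part of that loss in the values was not tested.

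Of 7 early termination and elongation factors, 2 rose and 1 fell in Sdc1_KO, 3 rose and 1 fell in Dpy30_KO, 3 rose in Sdc1_mut, and 2 rose and 2 fell in the double mutant. In Sdc1_KO and the double mutant these shares are about the background (28.0% higher and 22.4% lower, and 29.1% and 30.1%). Over all features 27.2% were called higher and 25.1% lower in Dpy30_KO, and 27.9% and 24.7% in Sdc1_mut. The calls of SPT4, higher in Dpy30_KO (0.36) and Sdc1_mut (0.38), were lost with DESeq2 and with library totals as the scaling. Those of RPB9, lower in Dpy30_KO (-0.35) and the double mutant (-0.36), were lost with DESeq2. The medians were -0.02, -0.09, 0.14 and -0.16 in that order. SEN1, the helicase of the Nrd1 complex, rose by 0.60 ± 0.10 in Dpy30_KO, 0.52 ± 0.10 in Sdc1_mut and 1.18 ± 0.10 in the double mutant (adjusted p = 0.00028, 0.00072 and 1.2e-06, edgeR). Its rise of 0.30 ± 0.10 in Sdc1_KO (adjusted p = 0.02, edgeR) was lost in 2 of the 4 fits that left out a library (adjusted p = 0.14 without WT replicate 2) and in the fit of these 2 groups alone. DST1, which encodes the elongation factor TFIIS, rose by 0.85 ± 0.10 in Sdc1_KO, 0.46 ± 0.10 in Dpy30_KO, 0.68 ± 0.10 in Sdc1_mut and 0.78 ± 0.10 in the double mutant (adjusted p from 2.7e-05 to 0.0019, edgeR). NRD1 was called in none of these strains, with values from -0.30 to -0.16. SPT5 was called lower in the double mutant (-0.41, adjusted p = 0.0044, edgeR). NAB3 was called lower in Sdc1_KO (-0.42, adjusted p = 0.0082, edgeR), a call lost in the fit of Sdc1_KO and WT alone (adjusted p = 0.075, edgeR).

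The 2 annotated genes on each side of every member were also read. Of these 20, 17 were tested, and 3 rose and 5 fell in Sdc1_KO, 4 rose and 5 fell in Dpy30_KO, 4 rose and 3 fell in Sdc1_mut, and 4 rose and 4 fell in the double mutant against WT. These counts are near the shares of all features called in the same comparisons (27.2% to 29.1% higher and 22.4% to 30.1% lower), so they say nothing particular of the neighbours. None was called in Jhd2_KO by edgeR, where 1 had an unadjusted p under 0.05. On the telomere side of IMD2, YHR218W and YHR219W had 0 fragments in every library, and both have near-identical copies on other chromosomes. PHO12, the next gene inward and itself a near copy of a gene on chromosome I, averaged 1.2 CPM in WT and was not called in any strain against WT. YHR214C-E, beyond PHO12, had at most 10 fragments in a library.

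Beside IMD3 lie SEN1 and ATG23 on one side and CNA1 and TSR2 on the other. TSR2, a ribosome assembly gene, rose by 1.49 ± 0.20 in Sdc1_KO, 1.29 ± 0.21 in Dpy30_KO and 1.52 ± 0.21 in Sdc1_mut (adjusted p = 0.0001, 0.00026 and 7.2e-05, edgeR). In the double mutant it rose by 0.90 ± 0.21 (adjusted p = 0.0025, or 0.054 without Sdc1_mut_Jhd2_KO replicate 2, edgeR). ATG23, the gene nearest to the IMD3 start, was not called in any strain against WT. Beside IMD4 lie CMP2, SML1, SPC2 and CYB2. CYB2, a lactate dehydrogenase gene, fell by 1.09 ± 0.19 in Sdc1_KO (adjusted p = 0.0006, edgeR). In the double mutant it rose by 0.74 ± 0.19 against WT (adjusted p = 0.0047, or 0.062 without Sdc1_mut_Jhd2_KO replicate 2, edgeR) and by 0.89 against Jhd2_KO (adjusted p = 0.0016, edgeR). Beside GUA1 lie SKY1, GAS3, TRS130 and ESC1. Against WT, GAS3 was called lower in the double mutant alone (-1.15 ± 0.27, adjusted p = 0.0027, edgeR). SKY1 was called lower in Sdc1_KO alone (-0.61 ± 0.11, adjusted p = 0.00076, edgeR). ESC1 fell by 0.73 ± 0.13 in Sdc1_KO and 0.53 ± 0.13 in Sdc1_mut (adjusted p = 0.00055 and 0.0038, edgeR). Its fall of 0.37 ± 0.13 in Dpy30_KO (adjusted p = 0.027, edgeR) was lost in each of the 4 fits that left out a library, up to an adjusted p of 0.15, and in the double mutant it stood at -0.04 ± 0.13. Beside GUK1 lie TSA2, PPN1, NHX1 and TOM1, of which TSA2, a peroxiredoxin gene, fell by 0.56 ± 0.14 in Sdc1_KO and 0.63 ± 0.14 in Sdc1_mut (adjusted p = 0.0057 and 0.0027, edgeR). In Dpy30_KO it fell by 0.48 ± 0.14 (adjusted p = 0.013, or 0.11 without Dpy30_KO replicate 2, edgeR), and in the double mutant it stood at 0.30 ± 0.14 and was not called.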

How the data were processed

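The deposited table lists, for each of 12 libraries and 7126 identifiers, expected counts of fragments and FPKM. The submitters' processing notes name TopHat, Cufflinks (both without a version), bcl2fastq 2.17.1.14 and build sacCer3. The expected counts are deposited before scaling, and 97.8% of the values were whole. The authors' FPKM divide fragments by transcript length and library size. Strand setting, multiply mapped reads and annotation are not given in the sources used here, so reads of overlapping genes may be mixed.

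The RefSeq R64 annotation matched 6048 identifiers by locus tag and 114 by symbol. Another 14, listed at 0 and marked as too deep to estimate, were left out. Counts were rounded, filtered by the edgeR default (6361 of 7112 kept) and scaled by TMM. A single edgeR 4.0.16 quasi-likelihood fit (R 4.3.3) of 6 groups gave every contrast. The standard error is the absolute log2 fold change over the square root of F, and the common coefficient of variation was 10.2%. Correlations used log2 CPM with a prior count of 2. Coding sequences were aligned with Biopython 1.88. Library depth, from 8652878 fragments upward, limits the precision of low counts.

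The members and gene lists were chosen with earlier results of these data known. The named genes were the members, up to 4 called genes with the largest change in each list, the 2 genes on each side of a member, and the 5 features most like each member. The alternatives tried were DESeq2 1.42.0, RLE scaling, no filter, 2 groups alone, each library left out, a replicate block, the authors' FPKM and, chosen after seeing the data, library totals, no mitochondrially encoded features and the IMD2 copies added. Where a library was left out, the lone library of its group was assumed to vary like the other groups.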

Additional observations from a re-analysis of the deposited data

Results flagged for a closer look

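The effect of the JHD2 deletion in Sdc1_mut differed from its effect in WT for 13 of the 45 nucleotide and termination genes, by an interaction term in edgeR's quasi-likelihood fit. Over all features 1297 of 6361 (20.4%) were called in the same test. ADK1, the adenylate kinase gene, differed by -0.99 on the log2 scale (adjusted p = 0.0016), and BAS1, the activator of the ADE genes, by 0.97 (adjusted p = 0.003). The log2 fold changes of ADK1 were -0.77 in the point mutant and 0.22 in WT, and those of BAS1 were 0.54 and -0.43. Both calls held in every alternative run, including each library left out.

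The other 11 lost the call in at least 3 of the 12 fits that left out a library. Among IMP synthesis genes the difference was -1.25 for ADE17, -0.75 for ADE1 and -0.47 for ADE16. It was -0.78 for ADE13, -0.80 for APT1, -0.53 for ISN1 and -0.44 for PRS5. For genes of guanine nucleotide use it was -0.54 for GDA1, -0.57 for VRG4 and 0.38 for RIB1. For SEN1, the helicase of the Nrd1 complex, it was 0.59.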

How the results depend on the processing

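For the 5 members, 286 of 287 values of a fold change under another scaling, tool, filter, sample set, replicate block or unit lay within 1 replicate SD of the reported one. The values were less stable when 1 library was left out, where 115 were counted as the same, 24 as moved and 1 as reversed. With 1 library left out, IMD2 ran from -2.83 to -2.05 in Sdc1_mut against WT and from -1.48 to -0.70 in the double mutant against Sdc1_mut. IMD3 in the double mutant against Jhd2_KO ran from -0.29 to 0.0061, so its sign rested on Jhd2_KO replicate 2. In Jhd2_KO against WT, IMD3 ran from -0.11 to 0.19. By the authors' FPKM the IMD2 share was 11.3% in the double mutant, 61.9% in Jhd2_KO and 58.5% in WT.

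A fit of the 2 groups alone called 2036 features in Sdc1_KO against WT (3208 in the fit of all libraries) and 17 of the 45 nucleotide and termination genes (26 in the fit of all libraries). In Jhd2_KO against WT, where 104 features were called, DESeq2 called 273 and 2 of the 45, a fit of the 2 groups alone 623 and 6, and the replicate block 164 features. With 1 library left out, the count in Jhd2_KO ran from 5 to 704 features and from 0 to 5 of the 45. In the double mutant against Sdc1_mut it ran from 1100 to 2799 features (2069 with all) and from 11 to 28 of the 45 (21 with all). With library totals 25.6% of the calls in Jhd2_KO were higher, against 46.2% with TMM. The cause of these shifts was not tested.

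Replicate numbers did not pair the libraries. The correlation of same-numbered deviations over the 15 pairs of groups ran from -0.131 to 0.156, and 4 exceeded 0.1. Each group held 2 libraries, and the smallest change that they can show was not measured.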
